A study of Arabidopsis thaliana with 9 samples.

Results

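The genes described here are those whose transcript level in the library labelled stress release was at least 2 times that in the library labelled stress, for the wild type and both mutants of a study of water shortage in Arabidopsis thaliana seedlings. They were chosen from the measured RPKM (reads per kilobase of gene, scaled to the size of the library). The ratio of RPKM + 1 had to reach 2 in aba2-1, in p5cs1-4 and in the wild type Col-0 (WT). The RPKM had to be at least 5 in each of the 3 labelled release libraries. Genes with a fraction of 0.5 or more of their reads shared with other places in the genome were left out. Of 33518 genes, 13195 passed the floor and the limit on shared reads, and 230 of these (1.74%) met the ratio in every genotype. Since these values chose the genes, labelled release against labelled stress is given as a description, with no test.

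RNA was taken from whole seedlings and sequenced in 9 libraries, 1 for each of 3 genotypes and 3 treatments. Each library holds the mixed RNA of 3 experiments, and with 1 library per group there is no replicate check on any difference. For labelled release, seedlings grown for 7 days spent 96 h on plates with polyethylene glycol at a water potential of -1.2 MPa and then 10 h back on control medium at -0.25 MPa. For labelled stress, seedlings were collected at 96 h on the -1.2 MPa plates, and for the control at 96 h on fresh -0.25 MPa plates. The mutant aba2-1 is impaired in ABA2, an enzyme of abscisic acid (ABA) synthesis, and p5cs1-4 carries an insertion in P5CS1, a gene for proline synthesis from glutamate. Each mutant was represented by 1 allele, and seedlings were pooled. Reads on genes ranged from 4898435 in the WT control to 18273185 in the p5cs1-4 control, so that low levels are least precise in the WT control. Brackets after a fold hold its 95% interval, which covers counting error only.

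ABA is made when water is short, and it acts through receptors that inhibit clade A protein phosphatases. This frees SnRK2 kinases, which activate the ABF transcription factors, and these bind the ABA-responsive element (ABRE) in promoters of genes for protective proteins such as dehydrins. A further route, known to need no ABA, runs through DREB factors and the dehydration-responsive element (DRE).

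The level of P5CS1, PRODH1 and the dehydration genes described below went against the treatment labels. The names of the deposited tables also carry an S for the libraries labelled release and an R for those labelled stress, and the groups used here follow the labels. P5CS1, a gene that low water potential is known to induce (AT2G39800; chromosome 2, 16598072 to 16603319 on the minus strand of TAIR10.1), stood in aba2-1 at 519 RPKM in labelled release, 32.4 in labelled stress and 204 in the control. In p5cs1-4 it stood at 416, 61.4 and 38.6 RPKM in the same order, and in WT at 1291, 23.2 and 57.2 RPKM. PRODH1, the proline dehydrogenase gene, whose induction is known from plants given water again, stood in that order at 19.4, 220.1 and 129.8 RPKM in aba2-1, at 10.8, 131 and 59.5 RPKM in p5cs1-4 and at 13.0, 90.9 and 84.8 RPKM in WT. Between labelled release and labelled stress, P5CS1 and PRODH1 thus differed in the direction known for stress against release, in each of the 3 genotypes. The terms "labelled release" and "labelled stress" are therefore used throughout, and no direction is read here as a response to stress or to its release. P5CS1 was read in the p5cs1-4 libraries too, and whether those reads lie before or after the insertion cannot be seen in gene totals. ABA2 lay between 12.3 and 18.5 RPKM in the 9 libraries and does not check the aba2-1 label.

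Tissue markers also differed between libraries. The summed level of 7 root markers lay between 12.0 and 33.7 RPKM in the labelled release libraries, between 7.36 and 80.7 RPKM in labelled stress and between 4.49 and 37.8 RPKM in the controls. The 6 leaf markers summed to between 4736 and 7105 RPKM in labelled release, between 7325 and 15150 RPKM in labelled stress and between 10675 and 17157 RPKM in the controls. The 10 seed markers stayed between 1.63 and 7.86 RPKM in sum, and none of the 3 marker lists held a gene at 0 in every library. Their part in the results was not tested, and in whole seedlings a change in the share of a tissue and a change in RNA per cell cannot be told apart.

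Among the 230 genes, the median ratio of labelled release over labelled stress was 2.91 in aba2-1, 3.39 in p5cs1-4 and 5.16 in WT. Over the 13195 genes past the floor the medians were 1.07, 1.02 and 1.08. In the labelled release libraries the median level of the genes was 21.3 RPKM in aba2-1, 55.0 RPKM in p5cs1-4 and 50.9 RPKM in WT. The p5cs1-4 release library held the highest level of 130 of the genes, the WT release library that of 85 and the aba2-1 release library that of 13. For the remaining 2, the AP2/ERF transcription factor gene ERF8 and the myb-like gene AT5G58340, the WT control was the highest of the 9 libraries. The lowest level was found in aba2-1 labelled stress for 78 genes, in WT labelled stress for 68 and in the WT control for 57.

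Annotation matched all 230 genes. Of these, 220 are protein coding, 8 are genes of noncoding RNA and 2 are transcribed pseudogenes. A symbol was given for 120. Another annotated gene overlaps 55 of the 230, on the other strand in 50. Whether reads were counted by strand is not given in the sources used here, so the levels of these genes, among them RAB18, LEA7, P5CS1, P5CS2, AFP1, ABF1, ABF3, GolS4, TMT2, GSTU10, TPX2 and SIS, may hold reads of the partner.

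Genes for late embryogenesis abundant (LEA) proteins, dehydrins and other proteins of dehydration were counted where they passed the floor. The floor is set on labelled release, so genes low there were left out of these counts. The list, like the other lists, was written with earlier results of these data known. It held 34 genes, of which 25 passed the floor. Among these, 8 (32.0%) met the rule, against 1.74% of all genes past the floor. Of the 25, labelled release exceeded labelled stress at least 2-fold for 9 in aba2-1 (4.38% of all genes past the floor did), for 17 in p5cs1-4 (4.68%) and for 15 in WT (9.97%), and 0 were at least 2-fold lower, against 2.83%, 4.49% and 6.59% of all genes past the floor. RAB18 (AT5G66400, chromosome 5, 26518277 to 26519447, minus strand), an ABA-inducible dehydrin, stood at 80.8, 5.97 and 264 RPKM in aba2-1 in labelled release, labelled stress and control. In p5cs1-4 it stood at 5407, 93.7 and 22.5 RPKM and in WT at 5324, 14.2 and 30.1 RPKM. In aba2-1 the control was thus the highest of the 3 libraries, and in the other genotypes labelled release was. Labelled release exceeded labelled stress 13.5-fold (10.3 to 18.1) in aba2-1, 57.7-fold (53.3 to 62.6) in p5cs1-4 and 374-fold (309 to 457) in WT.

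LEA7 (AT1G52690, chromosome 1, 19619724 to 19621534, plus strand), an LEA family member, had the same order of libraries. It was read at 23.1, 1.19 and 42.5 RPKM in aba2-1, at 1625, 23.5 and 2.73 RPKM in p5cs1-4 and at 1292, 1.34 and 4.02 RPKM in WT. The neighbours LTI65 and LTI78, also known as RD29B and RD29A, lie in tandem on chromosome 5 between 21237021 and 21243644. LTI65 stood at 10.3, 1.03 and 19.3 RPKM in aba2-1, at 663, 8.37 and 3.37 RPKM in p5cs1-4 and at 559, 1.39 and 3.51 RPKM in WT. LTI78 stood at 24.7, 3.91 and 19.0 RPKM in aba2-1, at 435, 13.8 and 64.5 RPKM in p5cs1-4 and at 345, 24.5 and 113 RPKM in WT. The pair therefore differed in the control libraries, where LTI65 was highest in aba2-1 and LTI78 lowest there. In labelled release aba2-1 was 54.4-fold (48.1 to 61.7) lower than WT for LTI65 and 13.9-fold (12.9 to 15.0) lower for LTI78. COR413IM1, which encodes a chloroplast membrane protein, differed less, with 25.2, 8.98 and 32.4 RPKM in aba2-1, 99.8, 19.1 and 61.6 RPKM in p5cs1-4 and 113, 51.2 and 79.4 RPKM in WT. The last 3 of the list, KIN1, RD22 and COR413-PM1, named after their values were seen, exceeded labelled stress in labelled release 2.28-fold to 5.01-fold in aba2-1, 3.67-fold to 21.1-fold in p5cs1-4 and 3.10-fold to 85.8-fold in WT.

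**Figure D1:**
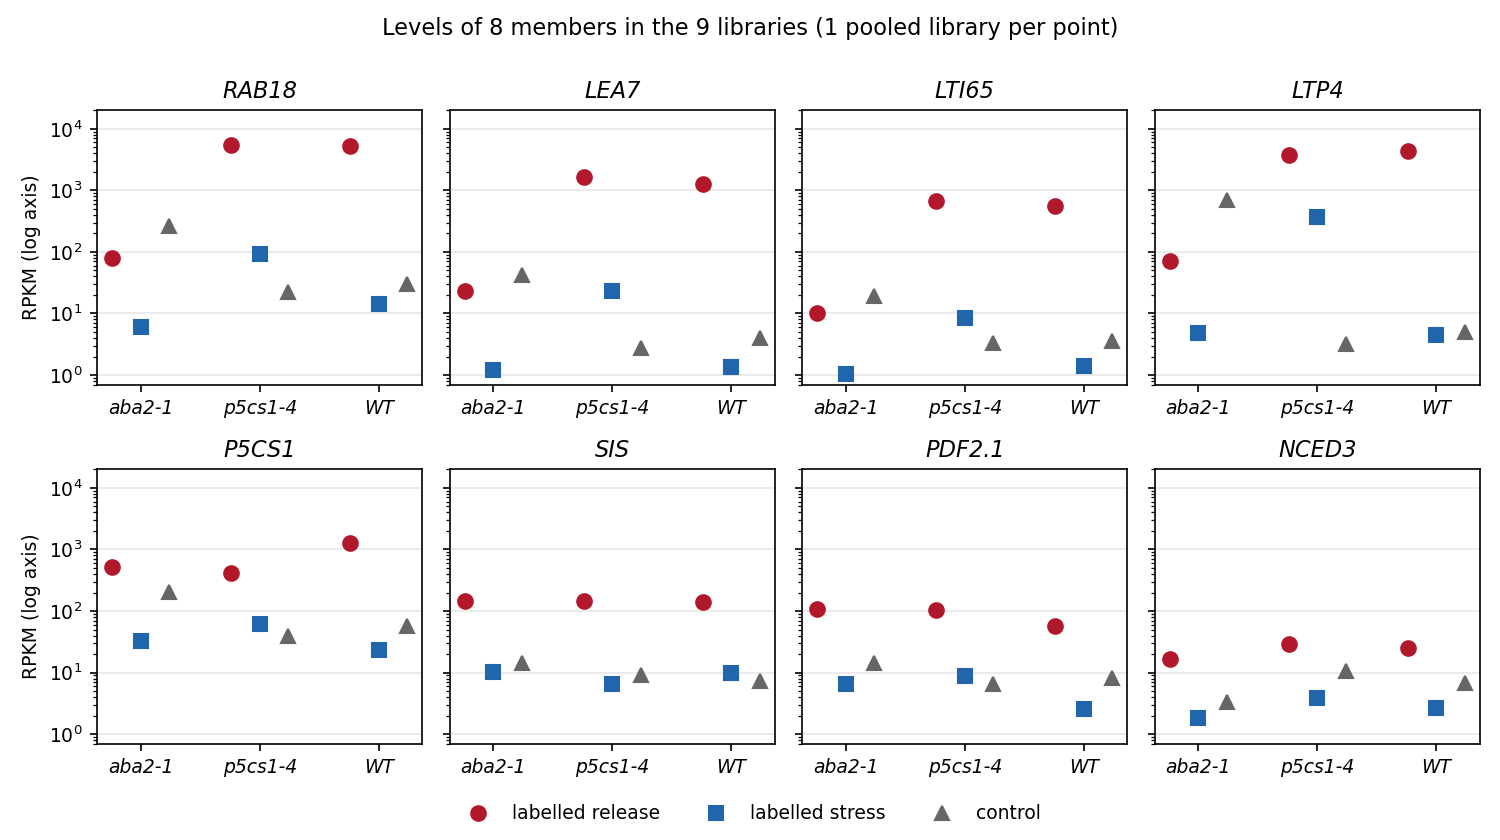
RPKM on a log axis for 8 of the 230 genes in the 9 libraries, with aba2-1, p5cs1-4 and WT from left to right and labelled release (circles), labelled stress (squares) and control (triangles) within each; each point is 1 pooled library. The aba2-1 release library is far below the other 2 for RAB18, LEA7, LTI65 and LTP4, while SIS stands at 147, 143 and 140.4 RPKM in the 3 release libraries.

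Lipid transfer proteins are small secreted proteins linked to the cuticle. Their genes LTP4 and LTP3 are divergent neighbours on chromosome 5 (23924990 to 23925957, minus strand, and 23928954 to 23929816, plus strand). LTP4 stood at 70.7, 4.87 and 704 RPKM in aba2-1, at 3719.7, 370.5 and 3.25 RPKM in p5cs1-4 and at 4288, 4.52 and 5.01 RPKM in WT, in labelled release, labelled stress and control. LTP3 stood at 53.0, 2.53 and 274 RPKM in aba2-1, at 1634, 171 and 3.62 RPKM in p5cs1-4 and at 1314, 2.79 and 3.47 RPKM in WT. For both genes the aba2-1 control exceeded the aba2-1 release library, and the p5cs1-4 stress library exceeded the p5cs1-4 control. The aba2-1 control was 141-fold (86.4 to 246) above the WT control for LTP4. In p5cs1-4, LTP4 was 114-fold (83.1 to 161) higher in labelled stress than in the control. Of the 9 lipid transfer protein genes of the list past the floor, these 2 met the rule (22.2%, against 1.74% of all genes). Labelled release exceeded labelled stress at least 2-fold for 2 of the 9 in aba2-1, 4 in p5cs1-4 and 5 in WT. Of all genes past the floor, 4.38%, 4.68% and 9.97% did. At least 2-fold lower were 2, 4 and 2, against 2.83%, 4.49% and 6.59% of all genes past the floor.

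The phosphatase genes HAI2, HAI1 and ABI2 met the rule, 3 of the 7 of clade A past the floor (42.9%). All 7 exceeded labelled stress at least 2-fold in labelled release in p5cs1-4 and in WT, and 3 did in aba2-1. Of all genes past the floor, 4.68%, 9.97% and 4.38% did in the same order. HAI2 stood at 5.04, 0.264 and 14.0 RPKM in aba2-1, at 79.4, 11.0 and 0.837 RPKM in p5cs1-4 and at 104, 0.261 and 2.06 RPKM in WT. HAI1 stood at 12.3, 1.82 and 27.9 RPKM in aba2-1, at 177, 10.0 and 6.04 RPKM in p5cs1-4 and at 217, 1.09 and 4.35 RPKM in WT. ABI2 stood at 8.40, 3.27 and 9.22 RPKM in aba2-1, at 49.4, 8.91 and 5.24 RPKM in p5cs1-4 and at 51.4, 2.34 and 2.94 RPKM in WT. For all 3 the aba2-1 control was above the aba2-1 release library. None of the 13 genes for ABA receptors and SnRK2 kinases of the list past the floor met the rule: labelled release was at least 2 times labelled stress for 0, 1 and 1 in aba2-1, p5cs1-4 and WT, and 1, 4 and 6 were at least 2-fold lower. A 0 in a list of 13 is near the 1.74% of all genes that met the rule, and nothing is read from it; the shares of all genes at least 2-fold lower are those given for the dehydration list.

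NCED3 encodes the 9-cis-epoxycarotenoid dioxygenase of ABA synthesis, a step upstream of ABA2. It was the 1 gene out of 6 for ABA synthesis and breakdown that met the rule (16.7%, against 1.74% of all genes). It stood at 16.7, 1.82 and 3.37 RPKM in aba2-1, at 29.0, 3.92 and 10.5 RPKM in p5cs1-4 and at 25.1, 2.67 and 6.65 RPKM in WT. Unlike the phosphatase genes, it was highest in labelled release in aba2-1 too. The fold over labelled stress was 9.14 (6.70 to 12.8) in aba2-1, 7.40 (5.77 to 9.65) in p5cs1-4 and 9.41 (7.07 to 12.8) in WT, with intervals that overlap.

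Transcription factors and their partners made up 8 of the genes by the lists. Of the 21 genes past the floor in a list of bZIP, NAC, HD-Zip and MYB factors, 7 met the rule (33.3%, against 1.74% of all genes). The list is not the whole of these families, so this is no share of a family, and no NAC or MYB gene is among the 7. NAC003, NAC042, NAC089, MYB7 and MYB43 met the rule but are not in the list, and all but NAC003 were named after their values were seen. Labelled release was at least 2 times labelled stress for 8, 12 and 15 in aba2-1, p5cs1-4 and WT. Of all genes past the floor, 4.38%, 4.68% and 9.97% did so. At least 2-fold lower were 1, 0 and 2, against 2.83%, 4.49% and 6.59% of all genes past the floor. The HD-Zip gene HB-7 stood at 132, 32.4 and 115 RPKM in aba2-1, at 535, 93.3 and 26.8 RPKM in p5cs1-4 and at 498, 12.7 and 38.6 RPKM in WT. Its relative HB-12 stood at 45.6, 13.6 and 26.0 RPKM in aba2-1, at 183, 25.1 and 17.5 RPKM in p5cs1-4 and at 136, 15.5 and 15.0 RPKM in WT. AFP1 and AFP3 encode proteins that bind the ABA response factor ABI5. In labelled release AFP1 reached 9.13 RPKM in aba2-1, 55.8 in p5cs1-4 and 46.9 in WT, and AFP3 reached 17.41, 77.0 and 61.2 RPKM.

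The 3 ABF genes that met the rule, ABF1, ABF2 and ABF3, encode bZIP factors that bind the ABRE. ABF3 stood at 57.5, 17.9 and 27.3 RPKM in aba2-1, at 77.7, 26.4 and 34.2 RPKM in p5cs1-4 and at 93.7, 26.6 and 40.1 RPKM in WT. Its fold over labelled stress was 3.21 (2.87 to 3.60) in aba2-1, 2.94 (2.65 to 3.27) in p5cs1-4 and 3.52 (3.18 to 3.90) in WT. ABF1 was 2.36-fold, 2.23-fold and 2.67-fold higher in that order of genotypes, and ABF2 2.19-fold, 3.52-fold and 3.92-fold. The folds of ABF3 and ABF1 in aba2-1 were thus within 1.5 times of those in the other genotypes. HSFA6A, a heat shock factor gene, met the rule, 1 of 7 heat shock genes past the floor (14.3%, against 1.74% of all genes). It stood at 6.63, 0 and 17.3 RPKM in aba2-1, at 232, 14.9 and 0.371 RPKM in p5cs1-4 and at 226, 0.28 and 0.929 RPKM in WT. In aba2-1, where labelled stress held no read, labelled release was at least 19.6-fold higher, taking a floor of 3 reads for that library. None of the 7 AP2/ERF genes of the list past the floor met the rule, but the list does not hold ERF8 and LEP, AP2/ERF genes that did. LEP, named after its values were seen, had ratios of 4.03 in aba2-1, 2.32 in p5cs1-4 and 4.80 in WT.

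In proline metabolism P5CS1 and its paralogue P5CS2 met the rule, out of 8 genes past the floor (25%, against 1.74% of all genes). The fold of P5CS1 in labelled release over labelled stress was 16.0 (15.0 to 17.1) in aba2-1, 6.77 (6.40 to 7.17) in p5cs1-4 and 55.8 (51.3 to 60.7) in WT. It was 1 of 3 genes at least 2-fold lower in p5cs1-4 than in WT in labelled release. P5CS2 stood at 120.4, 58.5 and 62.5 RPKM in aba2-1, at 185, 65.7 and 50.8 RPKM in p5cs1-4 and at 156, 48.7 and 49.5 RPKM in WT. Its aba2-1 ratio was just under 2 when libraries were scaled by TMM factors (log2 ratio 0.95).

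Genes of sugar metabolism and transport that met the rule are described next. GolS2 and GolS4 encode galactinol synthases, which supply the galactosyl donor of raffinose. GolS2 stood at 31.1, 2.61 and 15.1 RPKM in aba2-1, at 123, 13.4 and 13.6 RPKM in p5cs1-4 and at 102, 5.95 and 11.0 RPKM in WT. GolS4 stood at 16.7, 1.86 and 3.22 RPKM in aba2-1, at 23.9, 3.99 and 3.24 RPKM in p5cs1-4 and at 14.5, 1.59 and 4.99 RPKM in WT. The release library of aba2-1 was thus below the others for GolS2 and between them for GolS4. SIP1, annotated as seed imbibition 1, stood at 8.89, 2.17 and 1.61 RPKM in aba2-1, at 20.2, 3.83 and 2.31 RPKM in p5cs1-4 and at 13.3, 2.16 and 3.34 RPKM in WT. Of 20 galactinol, raffinose and trehalose genes past the floor, these 3 met the rule (15%, against 1.74% of all genes). In starch breakdown ISA3, a debranching enzyme, and SEX4, a glucan phosphatase, met it out of 16 (12.5%). Their levels in labelled release were 2.29-fold to 3.99-fold those in labelled stress in the 3 genotypes. Of 19 sugar transport genes past the floor 3 met the rule (15.8%). The sugar exporter gene SAG29 (also SWEET15) stood at 9.15, 0.736 and 12.9 RPKM in aba2-1, at 205, 32.3 and 3.66 RPKM in p5cs1-4 and at 165, 0.0911 and 1.97 RPKM in WT, where the value in labelled stress is that of 1 read. TMT2, of the vacuole membrane, was 2.66-fold, 3.15-fold and 6.22-fold higher in aba2-1, p5cs1-4 and WT. SWEET13 was 4.03-fold and 2.31-fold higher in aba2-1 and p5cs1-4, and 63.0-fold (17.1 to 526) in WT, where labelled stress held 2 reads.

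Lists without a gene that met the rule were those of flavonoid enzymes (15 past the floor) and regulators (9), amino acid breakdown (25), wax and suberin (19), cell wall expansion (17), aquaporins (18), jasmonate (19) and photosynthesis (31). With 1.74% of all genes past the floor meeting the rule, a 0 in lists of these sizes is near that share, and nothing is read from it. The lists are not complete. EXPA17, an expansin gene, had ratios of 3.40 in aba2-1, 2.88 in p5cs1-4 and 4.89 in WT, and FACT, an acyltransferase gene, had 2.38, 2.45 and 2.35. Neither is in the lists, and EXPA17 was named after its values were seen. SAG29 was the 1 of 25 senescence and autophagy genes, and GSTU10 the 1 of 41 glutathione transferase and antioxidant genes of the list (2.44%, near the 1.74% over all genes), which does not hold GSTF3, TPX1 and TPX2, genes of the same kind that met the rule (TPX1 was named after its values were seen). The fold of GSTU10 in labelled release over labelled stress was 3.75, 3.40 and 5.26 in aba2-1, p5cs1-4 and WT.

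SIS (AT5G02020, chromosome 5, 385878 to 388231, minus strand) is annotated as an E3 ubiquitin-protein ligase RLIM-like protein. Its level was close to the same in the 3 release libraries. It stood at 147, 10.3 and 14.5 RPKM in aba2-1, at 143, 6.48 and 9.12 RPKM in p5cs1-4 and at 140.4, 9.86 and 7.22 RPKM in WT. Its fold over labelled stress was 14.3 (12.1 to 17.0) in aba2-1, 22.1 (17.3 to 28.6) in p5cs1-4 and 14.2 (11.8 to 17.3) in WT. PDF2.1, a plant defensin gene, stood at 109, 6.50 and 14.4 RPKM in aba2-1, at 104, 8.79 and 6.50 RPKM in p5cs1-4 and at 57.1, 2.53 and 8.02 RPKM in WT. GSTF3, a glutathione transferase gene, was higher in aba2-1 than in the other genotypes in labelled release but not in labelled stress or the control, with 29.1, 2.14 and 1.66 RPKM there, 22.8, 4.39 and 1.79 RPKM in p5cs1-4 and 11.9, 2.78 and 0 RPKM in WT. TPX2, a thioredoxin-dependent peroxidase gene, stood at 78.7, 16.3 and 9.51 RPKM in aba2-1, at 37.8, 9.37 and 6.51 RPKM in p5cs1-4 and at 49.5, 7.80 and 5.13 RPKM in WT. Up to a fraction of 0.311 of the reads of TPX2 also map elsewhere, so its level is uncertain. AT3G13130, an uncharacterized gene, reached 10.7 RPKM in aba2-1, 29.0 in p5cs1-4 and 38.7 in WT in labelled release, against 2.55 RPKM or less in the other 6 libraries. HIPP22, a gene for a heavy-metal-associated protein, reached 8.75, 65.2 and 58.2 RPKM in the same libraries, against at most 2.57 RPKM in the rest.

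The 5 genes with the highest mean level in labelled release were AT4G23670, GRP-3, RAB18, LTP4 and JAL22. Across the 9 libraries the lowest level of AT4G23670, GRP-3 and JAL22 was 303 RPKM, while RAB18 and LTP4, described above, had low levels in some libraries. GRP-3, which encodes a glycine-rich cell wall protein, stood at 2848, 1254 and 4889 RPKM in aba2-1, at 6346, 2112 and 1405 RPKM in p5cs1-4 and at 10584, 2486 and 1962 RPKM in WT. AT4G23670, of the polyketide cyclase and lipid transport superfamily, stood at 3622, 1541 and 4690.3 RPKM in aba2-1, at 6884, 2918 and 2012 RPKM in p5cs1-4 and at 9353, 1665 and 2432 RPKM in WT. The lectin gene JAL22 stood at 674, 303 and 792 RPKM in aba2-1, at 1421, 491 and 439 RPKM in p5cs1-4 and at 1686, 757 and 447 RPKM in WT. In aba2-1 the control exceeded labelled release for each of these 3.

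Against the control of the same genotype, the genes split by genotype. The comparisons share libraries with the rule and are given as a description, with genes counted when 2-fold apart in RPKM + 1. Labelled release exceeded the control at least 2-fold for 85 of the 230 genes in aba2-1 (5.18% of all genes past the floor did), 218 in p5cs1-4 (9.09%) and 213 in WT (14.2%). In all 3 genotypes 77 did (1.33%), and 208 in both p5cs1-4 and WT (7.34%). At least 2-fold lower than the control were 10 in aba2-1 (2.68%), 0 in p5cs1-4 (6.94%) and 0 in WT (7.0%). The 10 include RAB18, LTP3, LTP4, HSFA6A, HAI1 and HAI2. The median ratio of labelled release over control was 1.68 in aba2-1, 4.50 in p5cs1-4 and 4.92 in WT, against 1.12, 1.14 and 1.15 over all genes past the floor.

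Labelled stress against the control differed between the genotypes as well. In aba2-1, 85 of the genes were at least 2-fold lower in labelled stress than in the control (2.3% of all genes past the floor were) and 2 higher (2.99%). In p5cs1-4, 7 were lower (2.59%) and 61 higher (4.12%), and in WT 38 were lower (1.79%) and 14 higher (3.65%). Lower in every genotype were 3 genes (0.0227%), LTI78, ERF8 and the WD40 repeat gene AT1G78070, the last of which was named after its values were seen. The median log2 ratio of labelled stress over control was -0.78 in aba2-1, 0.46 in p5cs1-4 and -0.22 in WT. The order of labelled release above control above labelled stress held for 165 genes in aba2-1, 62 in p5cs1-4 and 139 in WT. The rule had fixed that labelled release is above labelled stress; among all genes past the floor for which it is, 33.5% had this order in aba2-1, 23.5% in p5cs1-4 and 33.0% in WT. In p5cs1-4, labelled stress was at or above the control for 167 of the 230, against 63.5% of those genes. Those genes needed only some excess of labelled release, while the rule asked for a ratio of at least 2. The shares are therefore not like for like.

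**Figure D2:**
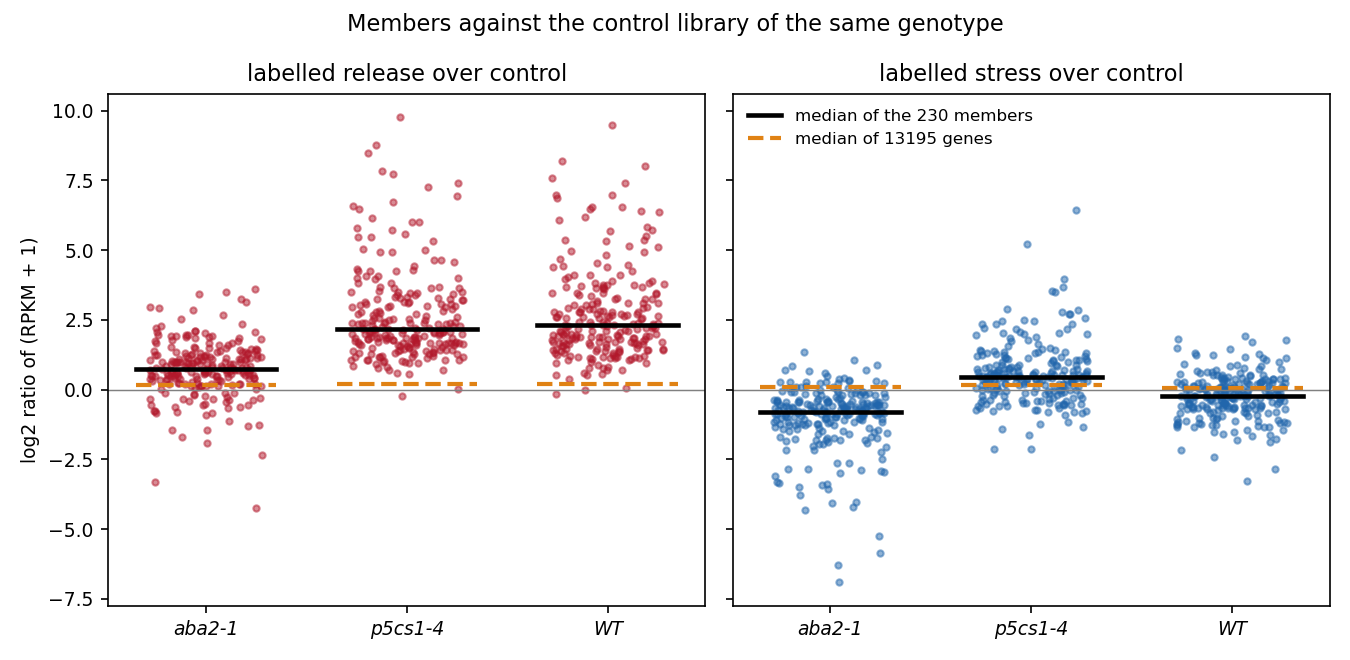
Log2 ratio of RPKM + 1 over the control library of the same genotype for the 230 genes, in labelled release (left panel) and labelled stress (right panel), with 1 point per gene, solid bars at the medians of the 230 and dashed bars at the medians of the 13195 genes past the floor. The aba2-1 medians, 0.74 and -0.78, lie below those of p5cs1-4, 2.17 and 0.46, and of WT, whose median ratios are 4.92 and 0.859 before the log is taken.

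The genes also differed in the size of the aba2-1 ratio relative to the other genotypes. In 31 genes the ratio of labelled release over labelled stress in aba2-1 was less than 0.5 of that in p5cs1-4 and of that in WT (1.55% of all genes past the floor). These include RAB18, LEA7, LTI65, LTI78, HIPP22, HAI1, ABI2, AFP1, AFP3 and HB-12. In 61 genes the aba2-1 ratio was within 1.5 times of both others (61.2%), among them SIS, PDF2.1, NCED3, GolS4, TPX2, SULTR3;1, GSTU10, SIP1, ABF3, SEX4 and ABF1. In 24 it was at or above both others (37.7%), among them GSTF3 and GolS4. These shares were set by the same values as the rule, and the shares over all genes are for genes of any ratio.

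**Figure D3:**
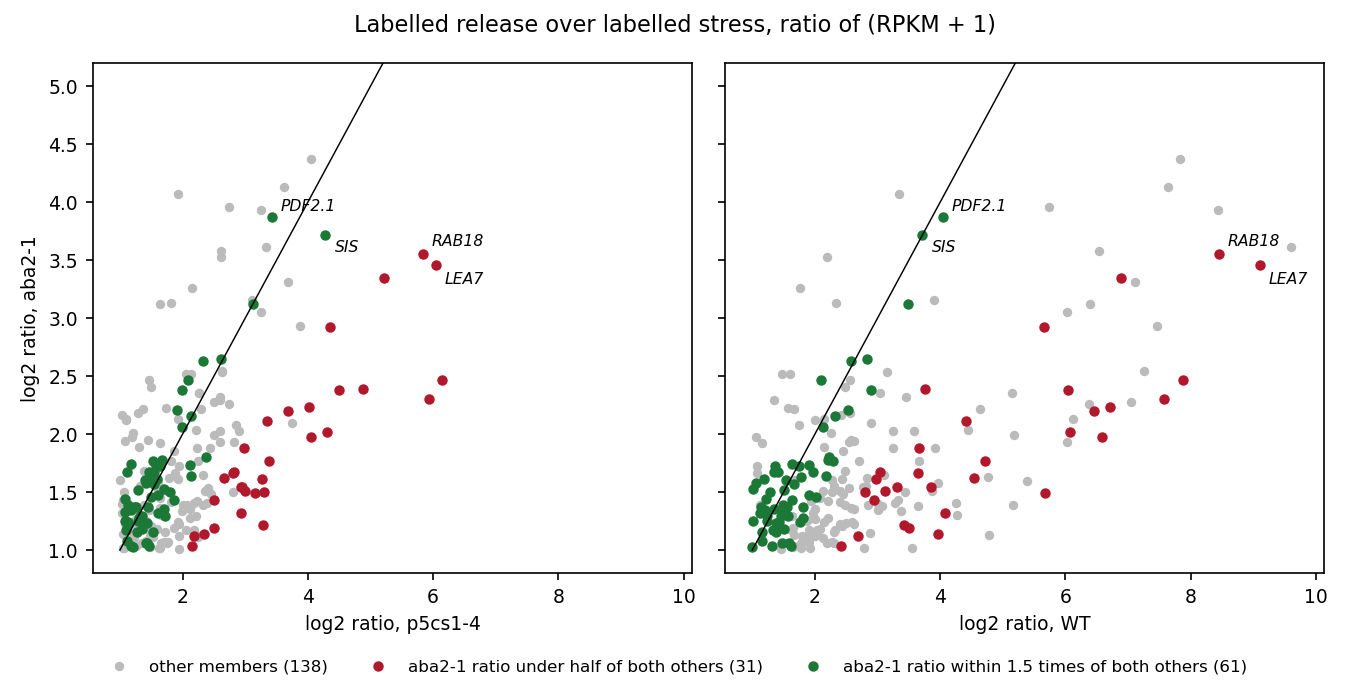
Log2 ratio of labelled release over labelled stress (RPKM + 1) in aba2-1 on the vertical axis against that in p5cs1-4 (left panel) and WT (right panel), with 1 point per gene and the line of equal ratios. The 31 genes with an aba2-1 ratio below 0.5 of both others lie right of the line, where the WT ratio reaches 552 for LEA7, and the 61 within 1.5 times of both lie along it.

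Promoter sequences are shown for the first genes with a symbol of these classes in the order of their smallest ratio, 4 with an aba2-1 ratio below 0.5 of both others and then 2 within 1.5 times of both, a choice made after the values were seen. Each is the 250 bases before the annotated start of the gene, 5′ to 3′ on the gene's strand, from the RefSeq sequence of TAIR10.1. Capitals mark ACGTG, the core of the ABRE, or CACGT, its other strand, and CCGAC, the core of the DRE, or GTCGG, its other strand. CACGTG, the G-box, holds ACGTG. The positions are chr5:26519448-26519697, minus strand for RAB18, chr1:19619474-19619723, plus strand for LEA7, chr1:8138864-8139113, plus strand for HIPP22, chr5:21236771-21237020, plus strand for LTI65, chr5:388232-388481, minus strand for SIS and chr2:538000-538249, plus strand for PDF2.1.
RAB18: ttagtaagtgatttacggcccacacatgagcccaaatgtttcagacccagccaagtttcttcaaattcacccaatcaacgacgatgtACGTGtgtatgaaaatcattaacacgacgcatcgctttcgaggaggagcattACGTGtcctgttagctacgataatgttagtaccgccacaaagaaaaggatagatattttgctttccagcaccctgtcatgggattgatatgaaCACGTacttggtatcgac
LEA7: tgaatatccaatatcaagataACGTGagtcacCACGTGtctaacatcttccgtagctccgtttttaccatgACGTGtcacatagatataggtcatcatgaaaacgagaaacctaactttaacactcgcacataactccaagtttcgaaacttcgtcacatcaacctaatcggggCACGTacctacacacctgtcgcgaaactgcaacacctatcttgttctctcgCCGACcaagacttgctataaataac
HIPP22: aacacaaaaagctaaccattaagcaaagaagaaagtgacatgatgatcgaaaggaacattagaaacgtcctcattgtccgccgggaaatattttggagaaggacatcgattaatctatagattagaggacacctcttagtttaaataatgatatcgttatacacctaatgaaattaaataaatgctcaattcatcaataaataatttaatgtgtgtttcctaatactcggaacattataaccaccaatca
LTI65: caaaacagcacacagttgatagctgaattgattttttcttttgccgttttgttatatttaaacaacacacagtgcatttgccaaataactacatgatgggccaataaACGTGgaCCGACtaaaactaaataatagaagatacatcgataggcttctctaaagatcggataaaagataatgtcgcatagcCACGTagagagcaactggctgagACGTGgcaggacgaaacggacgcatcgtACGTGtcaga
SIS: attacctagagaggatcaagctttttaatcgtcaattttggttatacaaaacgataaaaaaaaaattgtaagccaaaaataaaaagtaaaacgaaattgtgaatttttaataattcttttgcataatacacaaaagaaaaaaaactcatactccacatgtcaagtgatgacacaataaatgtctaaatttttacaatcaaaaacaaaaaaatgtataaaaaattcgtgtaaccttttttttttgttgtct
PDF2.1: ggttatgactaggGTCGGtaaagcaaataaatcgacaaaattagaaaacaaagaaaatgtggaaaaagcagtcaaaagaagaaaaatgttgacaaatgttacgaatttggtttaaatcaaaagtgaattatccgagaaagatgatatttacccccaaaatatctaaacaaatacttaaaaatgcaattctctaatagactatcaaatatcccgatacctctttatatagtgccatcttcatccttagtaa
The window held 3 ACGTG in RAB18, 5 in LEA7 and 4 in LTI65, counted on both strands, and 1 CCGAC each in LEA7, LTI65 and PDF2.1. The 1 CACGTG of LEA7 counts as 2 of its 5, 1 on each strand. HIPP22 and SIS held none of the motifs.

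Over the 220 protein-coding genes of the set, 39.5% of the windows held ACGTG on either strand, against 23.1% of the windows of all 26645 protein-coding genes and 23.9% of those of the genes past the floor. CACGTG was in 15.0% of the windows, against 6.60% of all and 7.81% of those of the genes past the floor, and CCGAC in 18.6%, against 11.9% and 13.3%. At least 2 matches of ACGTG, counted on both strands, were found in 23.2%, against 8.99% of all and 10.2% of those past the floor. A CACGTG reads the same on both strands and counts as 2 matches, so a window with a single G-box is among these. In the 31 genes with an aba2-1 ratio below 0.5 of both others 58.1% of the windows held ACGTG, 29.0% CACGTG and 25.8% CCGAC. In the 57 protein-coding genes within 1.5 times of both the shares were 35.1%, 10.5% and 22.8%. For ACGTG the interval of the share was 39.1 to 75.5% in the 31 and 22.9 to 48.9% in the 57. For CACGTG it was 14.2 to 48.0% and 3.96 to 21.5%, and both pairs overlap. Since the rule asks for a ratio of at least 2 in aba2-1, the 31 must have larger ratios in WT and p5cs1-4. They are thus also a class of large ratios there, and a link of the motifs to ABA was not tested. A match is a description of the letters and not a site of binding. LTP4, LTP3, HSFA6A, HAI1, HB-7, ABI2 and P5CS1 held no ACGTG in this window, and LTI78 held 3 CCGAC and no ACGTG.

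**Figure D4:**
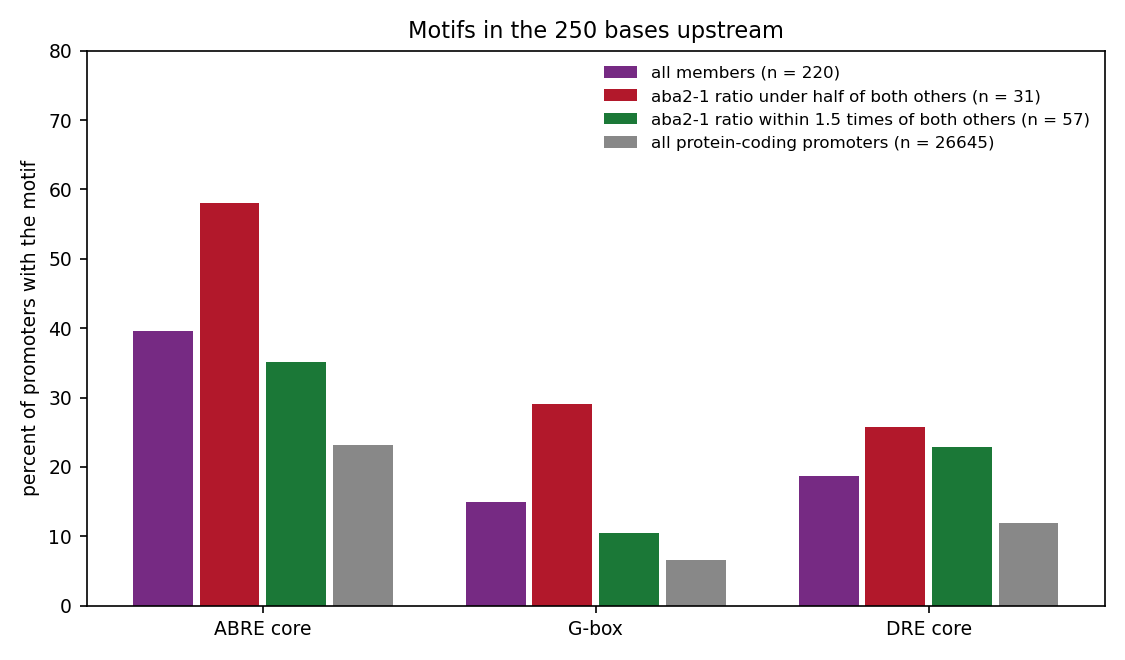
Percent of promoter windows (250 bases upstream) that hold the ABRE core, the G-box or the DRE core, for the 220 protein-coding genes of the set, the 31 with an aba2-1 ratio below 0.5 of both others, the 57 within 1.5 times of both, and all 26645 protein-coding genes. The ABRE core is in 39.5%, 58.1%, 35.1% and 23.1% of the windows in that order. The intervals of this share for the 31 (39.1 to 75.5%) and the 57 (22.9 to 48.9%) overlap.

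Levels in aba2-1 against WT went in opposite directions in labelled release and in the control. In labelled release 107 of the 230 genes were at least 2-fold lower in aba2-1 than in WT (2.89% of all genes past the floor were) and 3 higher (2.85%), which were GSTF3, AT5G03545 and NAC003. In labelled stress 26 were lower (3.35%) and 22 higher (6.28%). In the control libraries, which took no part in the rule other than through the limit on shared reads, 86 were higher (8.84%) and 13 lower (4.38%). The median log2 ratio of aba2-1 over WT was -0.88 in labelled release, -0.05 in labelled stress and 0.67 in the control. RAB18 was 65.9-fold (61.6 to 70.6) lower in aba2-1 than in WT in labelled release and 8.78-fold (7.35 to 10.6) higher in the control.

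Between p5cs1-4 and WT the genes differed mainly in labelled stress. There 86 were at least 2-fold higher in p5cs1-4 (6.06%) and 2 lower (2.86%). In labelled release 2 were higher (0.637%), AT2G18370 of the lipid-transfer superfamily and the malate synthase gene MLS, and 3 lower (0.538%), P5CS1, AT1G67105 and AT1G76960. AT2G18370, MLS and AT1G76960 were named after their values were seen. In the controls 16 were higher (3.12%) and 6 lower (0.909%). The count of 16 became 35 when a pseudocount of 0.1 RPKM was added in place of 1.

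**Figure D5:**
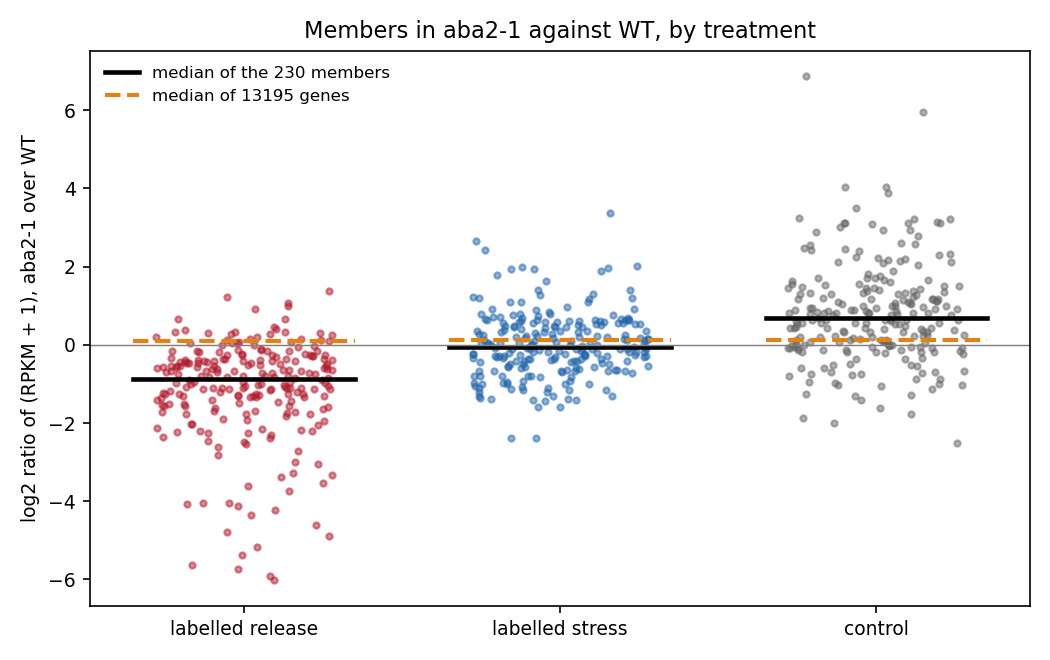
Log2 ratio of RPKM + 1 in aba2-1 over WT for the 230 genes in labelled release, labelled stress and control, with 1 point per gene, solid bars at the medians of the 230 and dashed bars at the medians of the 13195 genes past the floor. The medians of the 230 are -0.88, -0.05 and 0.67.

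The effect of genotype over all treatments was fitted across all genes, in an additive model of treatment and genotype on the estimated counts of the 9 libraries. Of these, 6 also chose the genes, so the counts of the set and its p-values are a description and no independent test. Its residual holds any interaction of genotype and treatment and is not a replicate error. With edgeR's quasi-likelihood test and Benjamini-Hochberg adjustment over 19622 genes, 0 of the 229 genes of the set that were tested passed an adjusted p of 0.05 in aba2-1 against WT in either direction, and 0 in p5cs1-4 against WT (0.0% of all genes in each). At an unadjusted p under 0.05, 41 were lower and 5 higher in aba2-1 (7.36% and 7.29% of all genes), and 10 lower and 8 higher in p5cs1-4 (5.37% and 5.45%). These counts moved with the libraries. Without the controls 92 were lower and 4 higher in aba2-1 (6.80% and 5.95% of all genes). In p5cs1-4, 7 were lower and 16 higher (4.92% and 4.70%). Without labelled stress 21 were lower and 1 higher in aba2-1 (2.29% and 2.05%). In p5cs1-4, 4 were lower and 1 higher (1.18% and 1.62%). Without labelled release 221 of the set were tested, and 23 were lower and 18 higher in aba2-1 (9.40% and 9.11%). In p5cs1-4, 8 were lower and 17 higher (4.89% and 5.25%). The 23 and 18 are 10.4% and 8.14% of those tested, near the shares over all genes, and nothing is read from them. In each of these fits 0 passed the adjusted p. DESeq2 in the same design called 20 lower and 1 higher in aba2-1 (1.47% and 1.25%), and 1 lower and 1 higher in p5cs1-4 (0.392% and 0.418%). NAC003 was the gene it called higher in aba2-1 (log2 fold 1.46, SE 0.39, DESeq2 adjusted p 0.0129), and ERF8, SULTR3;1, COR413IM1, LTI78 and ABF3 were among the 20. In p5cs1-4 it called AT3G27210 higher (log2 fold 1.27, SE 0.31, DESeq2 adjusted p 0.0135) and AT5G58340 lower (log2 fold -0.94, SE 0.27, DESeq2 adjusted p 0.0491).

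The smallest adjusted p for aba2-1 against WT belonged to ERF8, with 11.2, 3.66 and 10.2 RPKM in aba2-1, 16.3, 6.90 and 19.2 RPKM in p5cs1-4 and 28.4, 9.46 and 28.8 RPKM in WT. Its log2 fold was -1.56 (SE 0.18) with an edgeR adjusted p of 0.164, and it was lower in aba2-1 in 3 of 3 treatments. SULTR3;1, a sulfate transporter gene, had a log2 fold of -1.44 (SE 0.20), COR413IM1 one of -2.17 (SE 0.33) and LTI78 one of -3.07 (SE 0.48), each with an edgeR adjusted p of 0.175 and each lower in 3 of 3 treatments. Higher in aba2-1 with the smallest p was NAC003, a NAC family gene, with 21.1, 9.92 and 3.32 RPKM in aba2-1, 16.4, 7.31 and 2.29 RPKM in p5cs1-4 and 9.44, 1.75 and 1.31 RPKM in WT. Its log2 fold was 1.47 (SE 0.32) with an edgeR adjusted p of 0.212. TPX2 followed at 0.69 (SE 0.20) with an edgeR adjusted p of 0.235, and both were higher in 3 of 3 treatments. In p5cs1-4 against WT the smallest edgeR adjusted p was 0.378, for AT3G27210 (log2 fold 1.29, SE 0.24) and for AT5G58340 (log2 fold -0.93, SE 0.21), the first higher and the second lower in 3 of 3 treatments.

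At the threshold of the rule, the last genes inside had smallest ratios of 2.01 (AT5G05960), 2.01 (AT2G45600) and 2.00 (AT1G34630). The first genes outside had 2.00 (AT1G21680), 2.00 (AT5G19875) and 2.00 (AT1G73480) after rounding, each just under 2.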

How the data were processed

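Polyadenylated RNA of whole seedlings was sequenced in 9 libraries, 1 per genotype and treatment, each from the pooled RNA of 3 experiments. Per the file headers, the deposited tables hold for each gene a count of reads that is not always whole and is treated here as an estimated count, the RPKM, and the fraction of reads that map to several places. CASAVA 1.6 and TAIR10 appear in the submitters' processing notes. How reads were aligned and counted, and whether by strand, is not given in the sources used here. Libraries were amplified by PCR, per the labels' protocols, and reads are not independent molecules, so intervals cover counting error only.

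Ratios were taken from the deposited RPKM with a pseudocount of 1, so ratios of low genes are understated, while folds are plain ratios of RPKM with exact 95% conditional intervals from the reads. A fold against 0 reads uses a floor of 3 reads in that library. The additive model was fitted to estimated counts rounded to whole numbers, with edgeR 4.0.16 and TMM factors (a mean of at least 1 CPM, 4 residual degrees of freedom) in R 4.3.3, and with DESeq2 1.42.0 as the alternative. The edgeR fit was checked on simulated data with additive genotype effects only. The simulation held no interaction of genotype and treatment, so it does not check the model where the data hold one. Locus tags were matched to TAIR10.1, whose genome gave the promoter windows. The tables hold no coordinates.

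The genes and the lists were chosen with earlier results of these data known. Named are P5CS1, ABA2 and PRODH1, the 10 genes with a symbol that have the highest smallest ratio, up to 4 per list by that order, all transcription factors of the lists, the 5 most abundant in labelled release, the 5 highest and 5 lowest over control, the 3 on each side of the threshold, and the 4 with the smallest p per contrast and direction. Alternatives were other pseudocounts, floors, scalings, tests, reads and windows.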

Additional observations from a re-analysis of the deposited data

Results flagged for a closer look

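Of the 230 genes, 10 were at least 2-fold lower in labelled release than in the control in aba2-1 and at least 2-fold higher in WT and in p5cs1-4. Of all genes past the floor, 2.68% were that much lower in aba2-1, against 4.35% of the 230. In both WT and p5cs1-4, 7.34% of all genes were that much higher, and 90.4% of the 230, whose rule used the same release libraries. The share of all genes with both parts of the pattern was not counted, so the count of 10 is a description only. With 1 library per group, the difference between the genotypes was not tested, and the genes share the same libraries. The log2 ratio of RPKM + 1 in aba2-1 was -1.70 for RAB18, -3.30 for LTP4, -2.35 for LTP3 and -1.26 for HSFA6A. For the phosphatase genes it was -1.31 for HAI2 and -1.12 for HAI1. In WT the same ratio was 7.42 for RAB18, 9.48 for LTP4, 8.20 for LTP3, 6.88 for HSFA6A, 5.09 for HAI2 and 5.35 for HAI1. In p5cs1-4 it was 7.84, 9.78, 8.47, 7.41, 5.45 and 4.66 in the same order.

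The other 4 were AT3G02480, an LEA family gene, at -1.45 in aba2-1, the uncharacterized gene AT3G27250 at -1.90, the noncoding RNA gene AT1G67105 at -4.24 and the ankyrin repeat gene AT5G15500 at -1.46. In WT AT3G02480 stood at 4.96, AT3G27250 at 5.51 and AT5G15500 at 4.93. AT1G67105 had 5.34 RPKM in aba2-1 labelled release, 1.10 in labelled stress and 119 in the control, and 229, 4.53 and 52.7 RPKM in WT, while in p5cs1-4 it had 8.48, 2.097 and 3.54 RPKM. AT3G02480 and AT5G15500 were named after their values were seen.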

How the results depend on the processing

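The count of 230 genes became 114 with a floor of 20 RPKM, all of them among the 230. It lay between 201 and 293 with a pseudocount of 0.1, no floor, no limit on shared reads, reads that map to 1 place only, TMM scaling or median-of-ratios scaling; TMM shared 200 genes with the 230. TMM lowered the median log2 ratio of labelled release over control among all genes past the floor to -0.04 in aba2-1, 0.03 in p5cs1-4 and 0.04 in WT, and 63, 205 and 205 of the genes were then at least 2-fold higher. Of 51 named genes, 46 kept a ratio of at least 2 in every genotype under TMM and 46 under median-of-ratios scaling; P5CS2, NAC003, AT5G58340, AT2G45600 and AT1G34630 were between 0.91 and 0.96 on the log2 scale. Reads on the deepest library were 18273185 and on the shallowest 4898435, which limits low levels in the WT control. The count of genes at least 2-fold higher in p5cs1-4 than in WT in the control became 35 with a pseudocount of 0.1. In the additive model DESeq2 called 20 lower and 1 higher in aba2-1, and 1 lower and 1 higher in p5cs1-4, where edgeR called 0; the cause was not tested. edgeR also called 0 with median-of-ratios factors, with no filter on low counts and without each treatment in turn. The counts at an unadjusted p under 0.05 moved by over 1.5 times when a treatment was left out, from 21 to 92 for those lower in aba2-1. Over all genes the share lower in aba2-1 was 2.29% in the fit with 21 and 6.80% in the fit with 92. The other counts of genes 2-fold apart that were varied stayed within 1.5 times. These were labelled release above control, labelled stress below control, and each mutant against WT in the control libraries. The remaining counts of genes 2-fold apart were not varied. A promoter window of 300 bases held ACGTG in 44.5%. No paired analysis was possible because each group is 1 pooled library.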

Other observations

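Product names shared by several of the genes gave 7 of the 28 genes past the floor annotated as bifunctional inhibitor, lipid-transfer protein or seed storage albumin (25%). They also gave 3 of the 4 LEA family genes so named (75%), 3 of the 11 remorin genes (27.3%) and 26 of 562 uncharacterized proteins (4.63%). Of all 13195 genes past the floor, 1.74% met the rule. These families were chosen after the values were seen.

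Neighbouring genes made up 5 pairs among the 230, TPX2 with TPX1, AFP1 with the noncoding gene AT1G69252, HSFA6A with ARD4, LTI65 with LTI78, and LTP4 with LTP3. AGP30, an arabinogalactan protein gene, was named after its values were seen. Its level was higher in aba2-1 than in the other genotypes in labelled release but not in labelled stress. It stood at 17.3 RPKM in labelled release, 0.0909 in labelled stress and 0.492 in the control in aba2-1. In p5cs1-4 it stood at 8.73, 1.56 and 1.69 RPKM and in WT at 13.8, 0.45 and 0.374 RPKM. The lowest of these levels rest on few reads, so their order is uncertain. NUDT24, which encodes a nudix hydrolase, stood at 29.9, 9.36 and 7.48 RPKM in aba2-1, at 18.3, 5.62 and 0.206 RPKM in p5cs1-4 and at 14.6, 0 and 0.155 RPKM in WT. The phosphate starvation gene AT5G03545 stood at 130.4, 40.2 and 21.6 RPKM in aba2-1, at 63.4, 22.3 and 16.3 RPKM in p5cs1-4 and at 49.6, 18.1 and 21.6 RPKM in WT.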
